A study of Mus musculus with 4 samples.

Results

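The selenoproteins outside the glutathione peroxidases were followed in mouse fibroblasts after a pulse of H2O2, together with *Secisbp2*, which encodes the protein that reads their mRNAs. The members were the probes that the array names *Selk*, *Sels*, *Selm*, *Selt*, *Sepw1*, *Sepn1*, *Sephs2*, *Sepp1* or *Secisbp2*. Of these 9 symbols, 7 had a probe under that name, and they gave 10 probes of the 39429 on the array, or 7 of its 30175 gene names. *Sels* and *Selt* had none under those symbols, and their probes, which the array lists under older names, are described apart from the members.

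The cells were NIH-3T3:Per2-Luc, a line of immortalized mouse fibroblasts carrying luciferase under the *Per2* promoter. All cultures were kept in medium with fetal bovine serum, which was exchanged for fresh medium at the start. 3 arrays carried RNA of cells cOS-pulsed (critical oxidative stress) with 5 mM H2O2 for 10 min and taken 4 h, 20 h and 32 h later, and 1 array carried RNA of control cells (0 mM H2O2), which its label places at 4 h. There was 1 array per condition, so no test was run, and the elapsed time and the pulse cannot be told apart at 20 h and 32 h.

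A level is given below as a scaled level, the log2 signal of a probe minus the 75th percentile of its array, and it is compared only between arrays for the same probe. A log2 ratio is the difference of 2 scaled levels. Its error, written after ±, is the error that the scanner software gives for the spots, with a median of 10.0% to 10.1% of the signal per array, and it does not cover differences between cultures. All 10 member probes were well above background on all 4 arrays by the flag of the scanner software, so every ratio was measured. The 8 fibroblast markers checked (*Col1a1*, *Col1a2*, *Col3a1*, *Vim*, *Fn1*, *Pdgfrb*, *Thy1* and *S100a4*) were also well above background on all arrays. Their summed signals, not scaled, ran from 517253 at 4 h to 815245 at 20 h, with 721591 in the control. These sums include the brightness of each array, whose 75th percentile differed from the control by -0.28 at 4 h and 0.33 at 20 h in log2. Of 4 markers each, epithelial cells had 1, leukocytes 2, endothelium 2 or 3, hepatocytes 0 to 2 and skeletal muscle 0 or 1 well above background. Their part in the results was not tested. Fewer cells of a type and less RNA per cell cannot be told apart in bulk RNA.

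Selenoproteins carry selenocysteine, an amino acid with selenium in place of the sulfur of cysteine. It is inserted at a UGA codon, which otherwise ends translation, when a hairpin downstream in the same mRNA (the SECIS element) is bound by SECISBP2 and the elongation factor EEFSEC brings the selenocysteine tRNA. Several selenoproteins are thiol-disulfide enzymes that act on peroxides or protein cysteines, and a group of them resides in the endoplasmic reticulum (ER), where proteins fold and misfolded ones are passed to the proteasome.

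What each spot measured is a stretch of the mRNA. The last 30 of the 60 bases are printed for the genes with a pair of probes and for *Sephs2* and *Sepw1*, the members on which the comparison at 4 h turned. Capitals mark AATAAA, the canonical polyadenylation signal, which occurs in 12.6% of all probes of the array.
Selk probe 1: aatgtacatgtttgtctccttatctttttt
Selk probe 2: ttttctcagcttttgaaatactgctcactg
Sepn1 probe 1: cagggtcatctgaggctgtcactttcataa
Sepn1 probe 2: gtcctgtAATAAAattggagagcctacagt
Secisbp2 probe 1: aaatggtgaagagcgatcacactgatggag
Secisbp2 probe 2: tgactgtagagttggaaattcactgggcct
Sephs2: aagatggctgcgatcagcaaagccagtggg
Sepw1: tcccggttgAATAAAgtttggatgaggtaa
The probes of a gene are numbered in the order of the transcript. In the array annotation (mm9), those of *Selk* lie on chromosome 14 at 30787828 to 30787887 and at 30788096 to 30788155, 268 bases apart. Those of *Sepn1* lie on chromosome 4 at 134095374 to 134095433 and at 134093808 to 134093867, 1566 bases apart. Probe 1 of *Secisbp2* (chromosome 13, 51752454 to 51758023) covers 5570 bases of the genome with its 60 bases and so crosses a splice junction, and probe 2 lies at 51778817 to 51778876. Probe 2 of *Sepn1* and the probe of *Sepw1* hold the polyadenylation signal, whereas no other member probe does. Whether a probe lies in the coding or an untranslated part was not annotated here.

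At 4 h after cOS-pulse, *Sephs2* was the 1 member that reached 2-fold over the control, and the other 9 probes lay between -0.20 and 0.69 in log2 ratio. Probe 1 of *Selk* and the probe of *Sepw1* were next, and 4 of 10 probes were higher than the control by more than the spot error while none was lower by more than it. With the other scalings 3 probes were higher and 1 to 6 lower by more than that error, the 6 with the spike-in controls. Over the whole array, 6.77% of probes were at least 2-fold higher at 4 h and 4.94% at least 2-fold lower beside 1 and 0 of the 10 member probes, a share that on so short a list does not stand apart from that background. Such shares, here and below, count undetected probes too. Of all probes, 53.4% were well above background in the control and 59.1% at 4 h, whereas all member probes were. The median log2 ratio was 0.15 over the member probes and 0.17 over the 20392 probes measured on both arrays, and 4 of 10 member probes were above that median.

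*Sephs2* (chromosome 7, 134416351 to 134416410) encodes selenophosphate synthetase 2, which makes the selenium donor for selenocysteine and is itself a selenoprotein. Its scaled level was -2.27 in the control, -1.03 at 4 h, -2.03 at 20 h and -2.26 at 32 h. The level at 4 h stood apart from the other 3. The log2 ratio was 1.24 ± 0.21 at 4 h (2.36-fold), higher than 95.0% of all measured probes, then 0.24 ± 0.22 at 20 h and 0.012 ± 0.22 at 32 h. The levels at 32 h and in the control differed by less than the spot error, and that at 20 h lay above the control by slightly more than it. The probe was dim, with a signal of 230 in the control and 447 at 4 h. With another background correction (normexp) the ratio at 4 h was 1.02, just past 2-fold. With the other ways of scaling the arrays, the ratio at 4 h stayed above the control but ran from 0.84 to 1.19, and it missed 2-fold when the arrays were scaled by the median or by the spike-in controls, or not scaled.

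*Selk* encodes a small selenoprotein of the ER membrane, a partner of the palmitoyl transferase ZDHHC6. With probe 1 its scaled level was 3.98 in the control, 4.68 at 4 h, 4.20 at 20 h and 4.28 at 32 h, and with probe 2 it was 2.31, 2.46, 2.38 and 2.56. Probe 1 was highest at 4 h, in 3 of the 5 other scalings too, whereas with the spike-in controls it was highest at 32 h and without scaling at 20 h. Probe 2 was highest at 32 h in all of them. At 4 h the log2 ratio was 0.69 ± 0.20 with probe 1 and 0.15 ± 0.20 with probe 2. The ratio of probe 2 lay 0.55 ± 0.29 below that of probe 1, more than the combined spot error, and since both probes were read on the same arrays this difference does not depend on scaling by 1 constant per array. At 20 h and 32 h the 2 probes differed by less than that error, with 0.22 and 0.069 at 20 h and 0.30 and 0.25 at 32 h. The RefSeq table (GRCm38.p6) lists 8 pseudogenes of *Selk*, and whether their transcripts bind these probes was not tested.

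*Sepw1* encodes selenoprotein W, a small thioredoxin-fold protein of the cytosol that is abundant in muscle. Its probe (chromosome 7, 16502562 to 16502621) had a scaled level of 3.65 in the control, 4.26 at 4 h, 3.84 at 20 h and 3.71 at 32 h. The highest level was that at 4 h, and the levels at 20 h and 32 h were within the spot error of the control. The level at 4 h was the highest in 2 of the 5 other scalings, and that at 20 h in the remaining 3, where it reached 0.53 over the control without scaling. The log2 ratio was 0.62 ± 0.20 at 4 h (1.53-fold), 0.20 ± 0.20 at 20 h and 0.060 ± 0.20 at 32 h. *Sephs2*, probe 1 of *Selk* and *Sepw1* were higher at 4 h than in the control under each of the 5 other scalings, down to 0.29 for *Selk* and 0.21 for *Sepw1* with the spike-in controls.

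**Figure D1:**
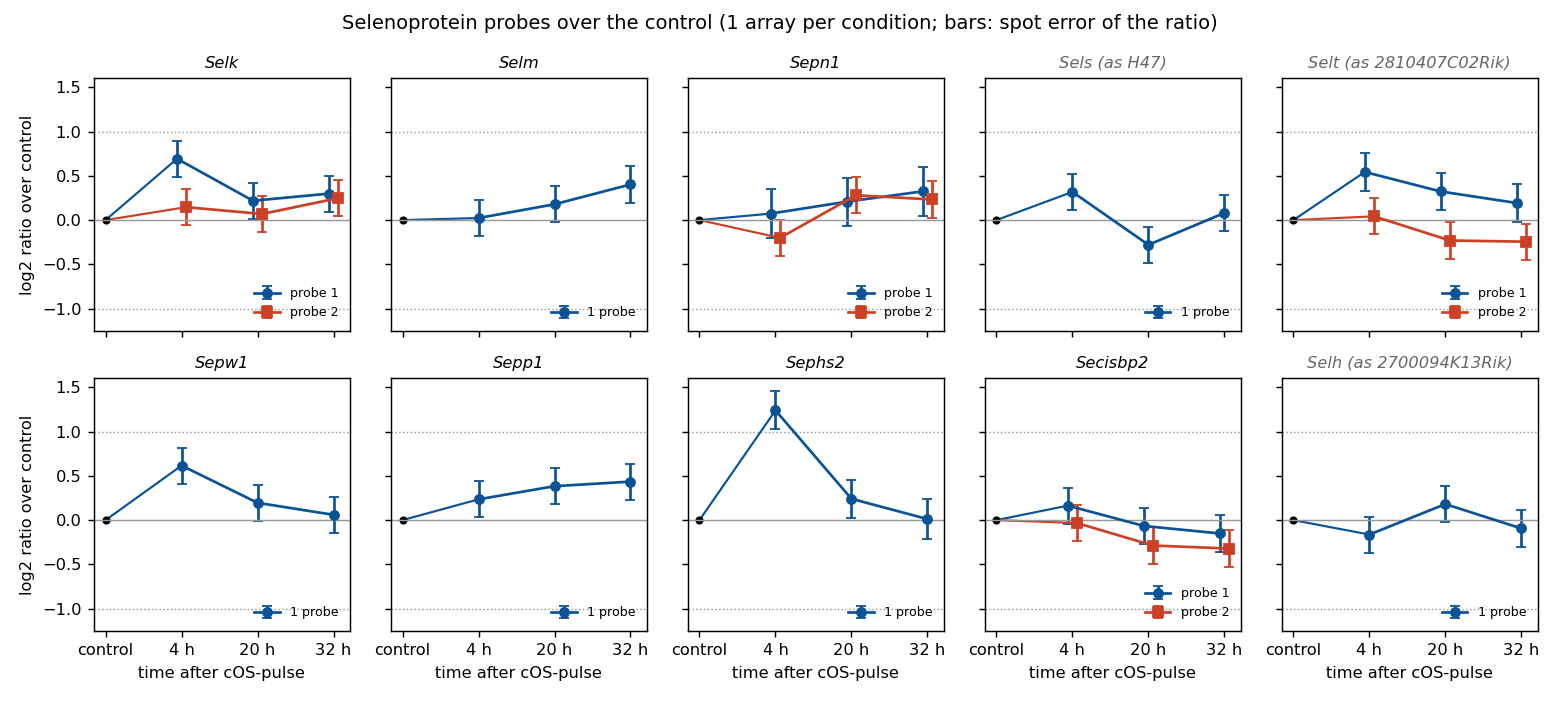
Log2 ratio over the control (y axis) by condition (x axis, equally spaced: control, then 4 h, 20 h and 32 h after cOS-pulse) for each gene, with 1 line per probe and the spot error of the ratio as bars. *Sephs2* reached 1.24 at 4 h, above the dotted line of 2-fold, while every other line stayed between the dotted lines, and the panels with grey titles hold probes that the array lists under older names.

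*Sepp1*, *Selm* and *Sepn1* were highest at 20 h or 32 h, under the 5 other scalings as well. *Sepp1* encodes selenoprotein P, the secreted carrier that brings selenium to other cells, and *Selm* a thioredoxin-fold protein of the ER lumen. *Sepn1* encodes an ER membrane glycoprotein known for its part in calcium handling and in inherited muscle disease. Since the ratios at all 3 times share the control array, a low or high spot there would move them together.

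The scaled level of *Sepp1* (chromosome 15, 3230418 to 3230477) was 3.46 in the control, 3.69 at 4 h, 3.84 at 20 h and 3.89 at 32 h. The control was the lowest of the 4, as in 1 of the 5 other scalings, while the level at 4 h was the lowest in the remaining 4. The log2 ratio was 0.38 ± 0.20 at 20 h and 0.43 ± 0.20 at 32 h (1.35-fold), higher than 91.1% and 92.2% of the measured probes. The levels at 20 h and 32 h differed from each other by less than the spot error, with a log2 ratio of -0.052 ± 0.20 for 20 h over 32 h. At 4 h the ratio was 0.23 ± 0.20, and it turned negative in 4 of the 5 other scalings.

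*Selm* (chromosome 11, 3417271 to 3417330) had a scaled level of 2.07 in the control, 2.09 at 4 h, 2.25 at 20 h and 2.47 at 32 h. The level at 32 h lay above the other 3. The log2 ratio was 0.023 ± 0.20 at 4 h, 0.18 ± 0.20 at 20 h and 0.40 ± 0.20 at 32 h (1.32-fold), at which it was higher than 90.9% of the measured probes. The value at 4 h was below the control under all 5 other scalings.

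Probe 2 of *Sepn1* had a scaled level of 2.49 in the control, 2.29 at 4 h, 2.77 at 20 h and 2.73 at 32 h. It was the member with the lowest ratio at 4 h, at -0.20 ± 0.20, and stayed below the control under all 5 other scalings, where it reached -0.60 with the spike-in controls. From 4 h to 20 h the level was 0.48 ± 0.20 higher. Probe 1 of *Sepn1* was much dimmer, with a signal of 116 in the control and a spot error of 14.2% there, and its log2 ratios were 0.074 ± 0.28, 0.21 ± 0.27 and 0.32 ± 0.28 at 4 h, 20 h and 32 h. At each of these times the ratios of the 2 probes over the control differed by less than the combined spot error. From 4 h to 20 h, however, probe 1 was higher by only 0.13 ± 0.26, and the probes differed by 0.35 ± 0.33 in this step.

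*Secisbp2* was the one member whose probes both lay below the control at 20 h and 32 h. It encodes the SECIS-binding protein and is not a selenoprotein. Probe 1 had a scaled level of 0.23 in the control, 0.39 at 4 h, 0.16 at 20 h and 0.077 at 32 h. Probe 2 had -1.47, -1.50, -1.75 and -1.79. The lowest level of both was at 32 h, whereas it was at 4 h when scaled by the spike-in controls or by the median, or not scaled. With probe 2 the log2 ratio was -0.033 ± 0.21 at 4 h, -0.29 ± 0.21 at 20 h and -0.32 ± 0.21 at 32 h, lower than that of most measured probes, since only 17.0% and 14.8% of them were lower still. With probe 1 it was 0.16 ± 0.20, -0.066 ± 0.20 and -0.15 ± 0.20, all within the spot error. Without scaling, probe 2 turned to 0.045 at 20 h, while at 32 h it stayed below the control under all 5 other scalings. Probe 1 turned positive in 3 of them at 20 h and in 2 at 32 h. With the spike-in controls its value at 32 h was 0.0064. Without the 1 spike-in probe furthest from the others, that scaling moved the median of all measured probes at 32 h by only 0.0037, too little to turn probe 1.

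No member probe was 2-fold from the control at 20 h or at 32 h. Over all probes, 0.763% were at least 2-fold higher and 1.87% at least 2-fold lower at 20 h, and 1.15% and 1.43% at 32 h. The median log2 ratio of the member probes was 0.20 at 20 h and 0.24 at 32 h, beside -0.0034 and -0.0062 over all measured probes, and 8 of 10 member probes were above the median of all probes at both times. The 2 others were the probes of *Secisbp2*. These shifts were of the size of 1 spot error, and probes of the same gene were counted separately. In linear terms they correspond to levels at most 1.35-fold above the control, the value of *Sepp1* at 32 h.

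**Figure D2:**
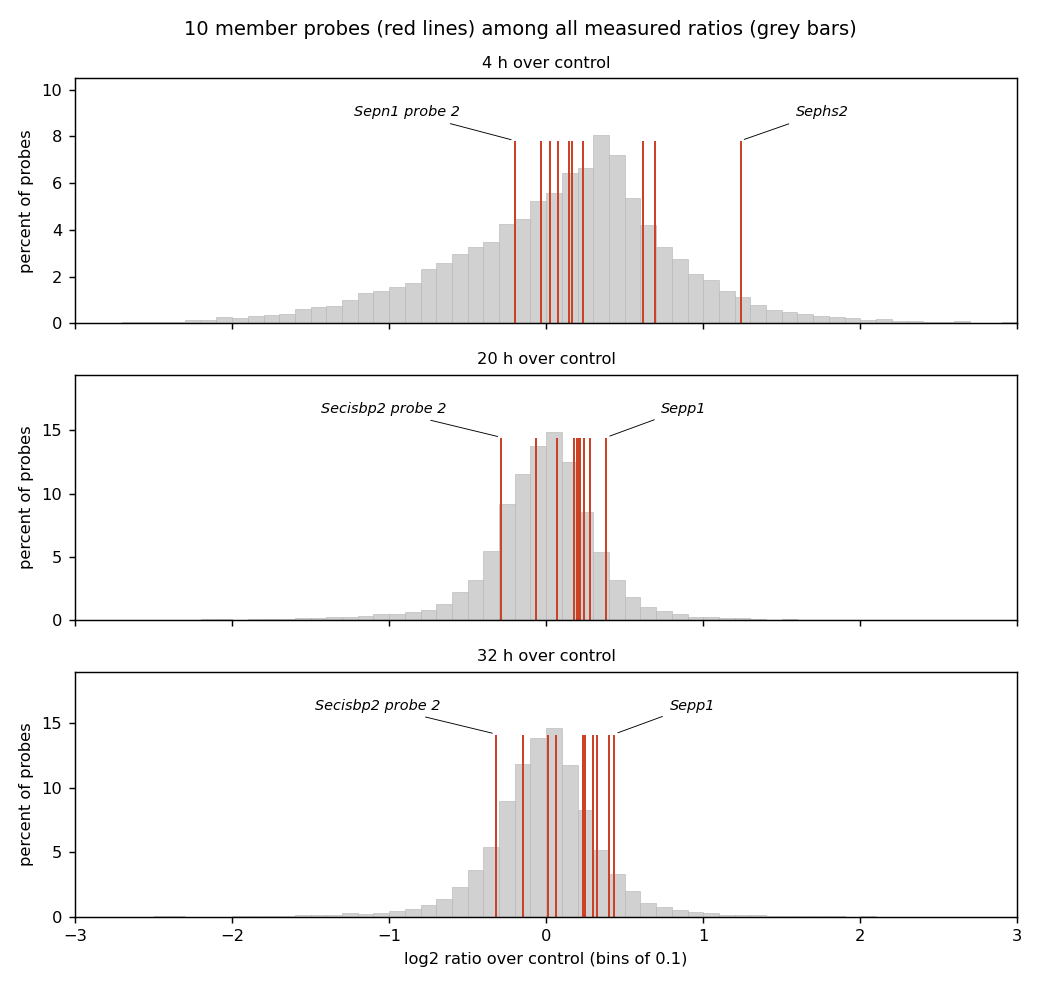
Histograms of the log2 ratio over the control (x axis, bins of 0.1) as percent of all measured probes (y axis) at 4 h, 20 h and 32 h, with the 10 member probes as red lines. At 4 h *Sephs2* (1.24) lay in the upper tail and the other members within the bulk of a wide distribution, and at 20 h and 32 h the members ran from *Secisbp2* probe 2 (-0.29 and -0.32) to *Sepp1* (0.38 and 0.43).

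Between 20 h and 32 h, the times at which the study looked for circadian change, the member probes differed little. 0 of 10 were 2-fold apart in either direction, beside 0.497% of all probes at least 2-fold higher at 20 h and 1.06% at least 2-fold higher at 32 h. The median log2 ratio of 20 h over 32 h was -0.0089. *Sephs2* was higher at 20 h by 0.23 ± 0.22 and *Selm* higher at 32 h, with -0.22 ± 0.20, and these were the only 2 member probes that differed by more than the spot error. Both kept their direction under all 5 other scalings. *Selm*, however, was within the spot error when scaled by the median or by the spike-in controls, or not scaled, where it was at -0.070.

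The spread between members on 1 array does not depend on a constant for that array. At 4 h the highest member, *Sephs2*, lay 1.44 ± 0.30 above the lowest, probe 2 of *Sepn1*. At 20 h the distance between the highest (*Sepp1*) and the lowest (*Secisbp2* probe 2) was 0.67 ± 0.29, at 32 h it was 0.76 ± 0.29 for the same pair, and for 20 h over 32 h it was 0.45 ± 0.30. The direction of single members at 4 h depended on the scaling in part. 5 of 10 probes kept their direction under all 5 other scalings, namely *Sephs2*, *Selk* probe 1 and *Sepw1* above the control and *Sepn1* probe 2 and *Secisbp2* probe 2 below it, and the remaining 5 turned in at least 3 of them. At 20 h 8 of 10 probes kept their direction and at 32 h 9 of 10, and those that turned were probes of *Secisbp2*. The choice of scaling moved the median of all measured probes at 4 h by -0.12 to -0.40 relative to the 75th percentile, at 20 h by -0.014 to 0.33 and at 32 h by -0.0098 to 0.18. The spike-in shift depended on 1 probe at the later times. Without that probe it went from 0.20 to 0.075 at 20 h and from 0.16 to 0.0037 at 32 h.

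**Figure D3:**
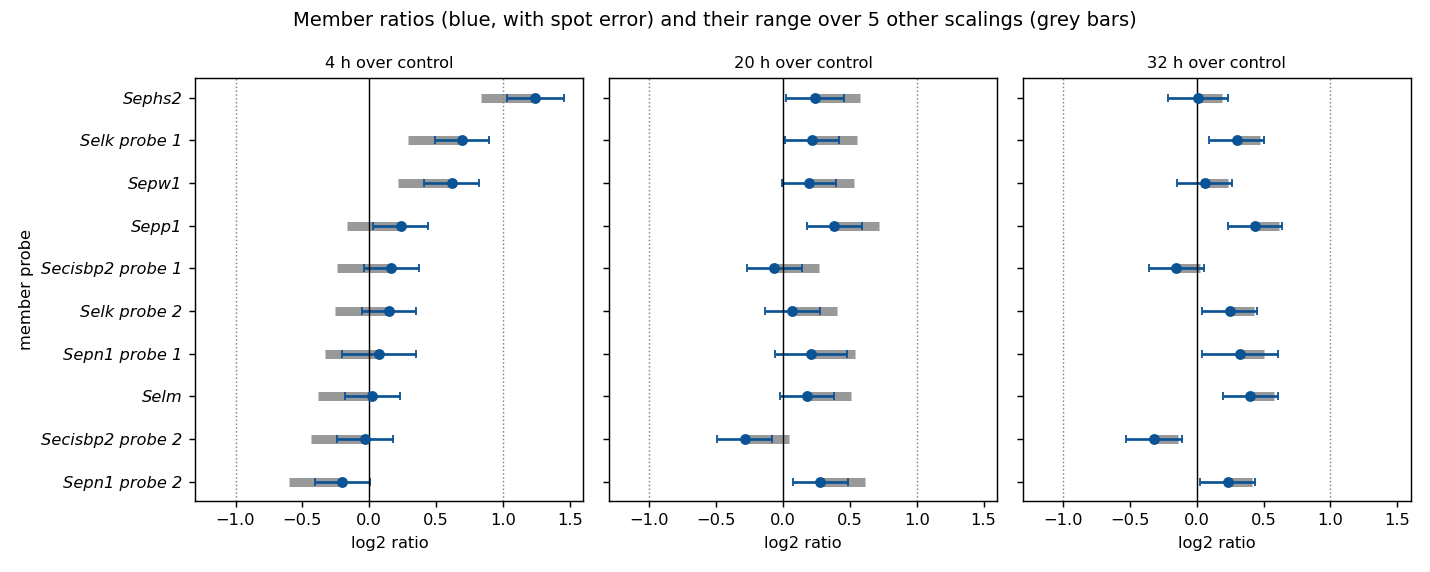
Log2 ratio over the control (x axis) of each member probe (y axis) at 4 h, 20 h and 32 h, with dotted lines at 2-fold. Blue points with spot-error bars show scaling by the 75th percentile, and thick grey bars the range over this and 5 other scalings. The grey bars ran from the blue points toward lower values at 4 h, where that of *Sephs2* spanned 0.84 to 1.24, and mainly toward higher values at 20 h and 32 h.

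3 selenoprotein genes were on the array under older names, matched through the RefSeq synonyms (*H47* for *Sels*, *2810407C02Rik* for *Selt* and *2700094K13Rik* for the nuclear selenoprotein *Selh*). They fall outside the rule for members. *Sels* encodes an ER membrane protein that links the derlins to the ATPase VCP in the removal of misfolded proteins. The scaled level of *H47* (chromosome 7, 73233759 to 73233818) was 3.40 in the control, 3.72 at 4 h, 3.12 at 20 h and 3.48 at 32 h. It was highest at 4 h and lowest at 20 h, but in 4 of the 5 other scalings it was highest at 32 h. It had log2 ratios over the control of 0.32 ± 0.20, -0.28 ± 0.20 and 0.080 ± 0.20. Its ratio of 20 h over 32 h was -0.36 ± 0.20, with 4.55% of all measured probes lower.

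*Selt* encodes a thioredoxin-fold protein of the ER membrane. The 2 probes of *2810407C02Rik* had log2 ratios of 0.54 ± 0.21 and 0.043 ± 0.20 at 4 h, 0.32 ± 0.21 and -0.23 ± 0.20 at 20 h and 0.19 ± 0.22 and -0.24 ± 0.20 at 32 h. Probe 1 was thus above the control at each time, beyond the spot error at 4 h and 20 h, and probe 2 below it at 20 h and 32 h, although without scaling it was above at 20 h. *2700094K13Rik* had -0.16 ± 0.20 at 4 h, 0.18 ± 0.20 at 20 h and -0.094 ± 0.20 at 32 h, each within the spot error. Under every other scaling, however, its ratio at 4 h was below the control by more than that error, from -0.57 to -0.22. Its level was lowest at 4 h and highest at 20 h in all scalings. The log2 ratio of 20 h over 4 h was 0.34 ± 0.20, beyond the spot error. None of these 4 probes was 2-fold from the control at any time.

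The genes listed for selenocysteine synthesis and insertion lay on both sides of the control at 4 h. The list was drawn broadly. All probes of *Scly*, *Ncl*, *Rpl30*, *Eif4a3* and *Sars* were above the control. The probes of the other listed genes ran from -1.54 (*Pstk*) to 0.75 (*Sepsecs*). This division follows the values and not the part that a gene has in making or inserting selenocysteine. Counts and medians describe only the list as drawn. *Rpl30*, *Eif4a3* and *Sars* were named after their values were seen. Of the 11 genes with 17 probes, all measured, 2 probes were above the control by 2-fold or more and 2 below it. Over all probes of the array, 6.77% were at least 2-fold higher at 4 h and 4.94% at least 2-fold lower. The median log2 ratio of the list was 0.42, beside 0.17 over all measured probes. With other scalings 2 probes of the list were above and 3 to 5 below, and its median was 0.018 to 0.30. The higher ones were *Scly*, the lyase that frees selenium from selenocysteine, with 2.31 ± 0.21 (4.96-fold), and 1 of 2 probes of *Ncl*, which encodes nucleolin, with 2.79 ± 0.20, whereas the other *Ncl* probe had 0.60 ± 0.20. The lower ones were *Pstk*, the kinase that phosphorylates the serine on the selenocysteine tRNA, with -1.54 ± 0.20 (2.90-fold lower), and *Eefsec*, the elongation factor, with -1.51 ± 0.21 (2.86-fold lower). The next enzyme after PSTK, *Sepsecs*, had 0.75 ± 0.22, and the 3 probes of *Trnau1ap*, which encodes a protein associated with that tRNA, lay between -0.96 and -0.58. These last 2 genes were named after their values were seen. *Scly*, *Ncl*, *Sepsecs*, *Pstk*, *Eefsec* and *Trnau1ap* kept these directions under all 5 other scalings, with 1.91 to 2.29 for *Scly*, -1.94 to -1.54 for *Pstk* and -1.92 to -1.64 for *Eefsec*.

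*Sephs1*, the paralog of *Sephs2* that carries no selenocysteine, was also named after its values were seen. 1 of its probes had -0.91 ± 0.21 at 4 h and the other 0.35 ± 0.24, which turned negative when scaled by the spike-in controls or by the median. At 20 h and 32 h no probe of the list was 2-fold from the control. The medians were then -0.14 and -0.20, and *Scly* had 0.33 ± 0.21 and 0.28 ± 0.21, *Pstk* -0.13 ± 0.20 and -0.22 ± 0.20, and *Eefsec* 0.066 ± 0.21 and 0.071 ± 0.21.

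**Figure D4:**
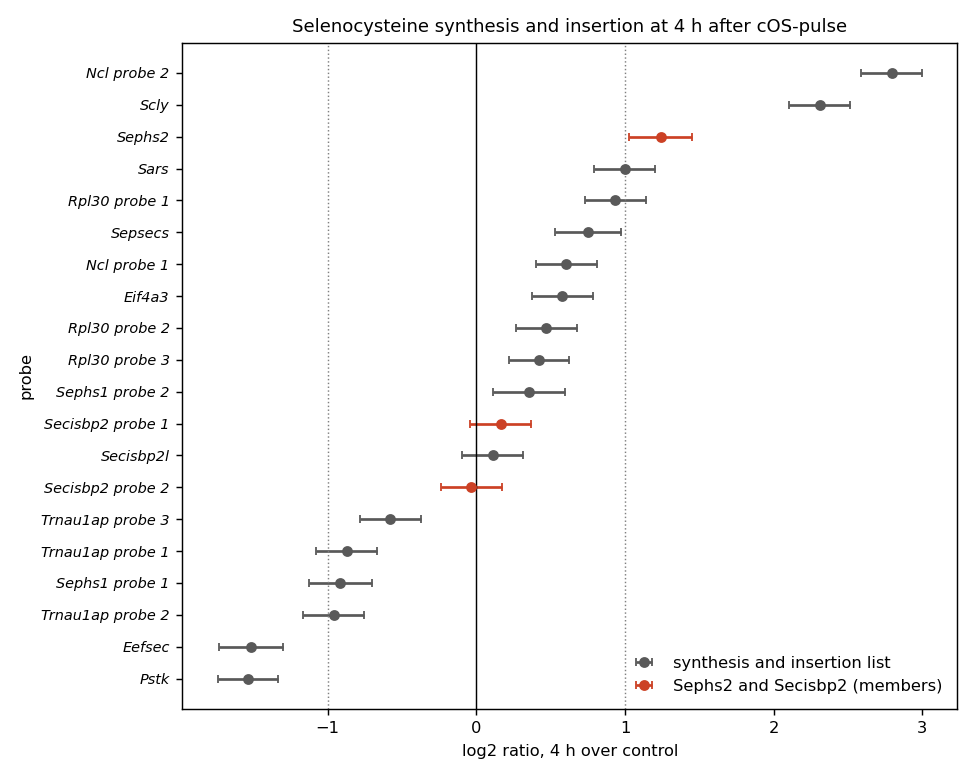
Log2 ratio of 4 h over the control (x axis) with the spot error for each probe (y axis) of the list for selenocysteine synthesis and insertion (grey) and for the members *Sephs2* and *Secisbp2* (red), ordered by value, with dotted lines at 2-fold. *Ncl* probe 2 (2.79) was highest, followed by *Scly* (2.31) and *Sephs2* (1.24). *Pstk* (-1.54) and *Eefsec* (-1.51) were lowest, and both *Secisbp2* probes lay near 0.

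Among the other selenoproteins, 16 probes of 13 listed genes were on the array, 11 of them measured at 4 h. The median log2 ratio of those was 0.014, beside 0.17 over all measured probes. Over all probes of the array, 6.77% were at least 2-fold higher at 4 h and 4.94% at least 2-fold lower. *Txnrd1*, the cytosolic thioredoxin reductase, had 1.77 ± 0.20 at 4 h (3.41-fold) and was the 1 probe of the list past 2-fold upward. It was -0.31 ± 0.20 and -0.40 ± 0.20 at 20 h and 32 h. *Dio3*, a deiodinase, was well above background in the control but not at 4 h, with a bound of 2.18-fold lower (log2 -1.12, spot error 0.55). Both directions at 4 h held under all 5 other scalings, whereas the median of the list was below 0 under all of them.

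Of the partners and receptors of the members, 23 probes of 14 genes were on the array, with 18 measured at 4 h. Their median was 0.23, beside 0.17 over all measured probes. It was below 0 when scaled by the spike-in controls, by the median or not at all. 3 probes were at least 2-fold higher at 4 h, beside 6.77% of all probes of the array. *Nploc4*, a cofactor of VCP, had 1.40 ± 0.20, and probe 1 of *Derl1* had 1.21 ± 0.20 while its other probe had 0.18 ± 0.20. *Ryr1*, the ryanodine receptor of muscle, was detected at 4 h but not in the control, with a bound of 2.06-fold (log2 1.04). The spot error of that probe was 1.46 in log2, larger than the bound, so this is no firm minimum. Over the other scalings 0 to 2 probes passed 2-fold upward, and *Ryr1* passed it in none. 2 probes were at least 2-fold lower, beside 4.94% of all probes of the array, and 2 to 4 with other scalings. *Itpr1*, an IP3 receptor of the ER, had -1.31 ± 0.21, and probe 2 of *Zdhhc6*, the partner of SELK, had -1.21 ± 0.20 beside -0.77 ± 0.21 with probe 1. *Lrp8*, a receptor for selenoprotein P, had 0.60 ± 0.29 and 0.90 ± 0.21 with its probes at 32 h and was named after its values were seen.

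All 15 probes of 13 ER stress targets were measured at 4 h. 4 of them were at least 2-fold higher and 0 at least 2-fold lower, beside 6.77% and 4.94% of all probes of the array. Their median was 0.74, beside 0.17 over all measured probes. *Dnajb9*, an ER co-chaperone, had 2.12 ± 0.20 and 2.61 ± 0.23 with its probes, and the others past 2-fold were *Hspa5* and *Herpud1*. The median of this list ran from 0.34 to 0.61 over the other scalings, and 2 to 4 probes passed 2-fold. Those of *Dnajb9* passed in all, while *Hspa5* went down to 0.95 and *Herpud1* to 0.76. The ER members *Selm* and *Sepn1* and probe 2 of *Selk* lay between -0.20 and 0.15 at the same time, and probe 1 of *Selk* at 0.69. Of the ER selenoproteins under older names, *H47* (*Sels*) had 0.32, and the probes of *2810407C02Rik* (*Selt*) had 0.54 and 0.043.

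The course of *Sephs2* was not its alone. Of 18622 other probes with a gene name that were well above background on all 4 arrays, 187 had all 3 log2 ratios within 0.2 of those of *Sephs2*, about the size of the spot error. The nearest 5 were probes of *Psmd11*, *St3gal1*, *Rabep1*, *Ppp1r2* and *Sik3*, whose largest difference from *Sephs2* over the 3 ratios was between 0.060 and 0.074.

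The promoters of *Sephs2* and *Selk*, the genes of the 2 highest ratios at 4 h, are shown as the 250 bases before the start of the gene in RefSeq (GRCm38.p6). The letters searched, on both strands, were TGACNNNGC (the core of the antioxidant response element bound by Nrf2), TGANTCA (the AP-1 site), CACGTG (the E-box bound by BMAL1:CLOCK), GAANNTTC (an inverted repeat of the heat shock element) and the ER stress element (CCAAT and CCACG with 9 bases between them). Capitals mark the matches.
Sephs2, chr7:127274060-127274309, minus strand: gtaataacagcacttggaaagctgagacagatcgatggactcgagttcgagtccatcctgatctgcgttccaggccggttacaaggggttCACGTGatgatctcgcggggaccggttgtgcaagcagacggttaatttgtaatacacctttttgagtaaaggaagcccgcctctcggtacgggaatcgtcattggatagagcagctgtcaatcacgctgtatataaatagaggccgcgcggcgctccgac
Selk, chr14:29968130-29968379, plus strand: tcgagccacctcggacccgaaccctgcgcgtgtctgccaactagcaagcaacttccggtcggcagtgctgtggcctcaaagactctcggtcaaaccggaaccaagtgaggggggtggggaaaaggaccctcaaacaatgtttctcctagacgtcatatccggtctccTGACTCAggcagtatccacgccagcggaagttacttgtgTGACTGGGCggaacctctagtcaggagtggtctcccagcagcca
*Sephs2* held 1 E-box, 160 bases before the start. *Selk* held 1 AP-1 site 83 bases and 1 antioxidant response core 44 bases before the start, and these did not overlap. Of 32851 promoters of the same length, 10.2% held the antioxidant response core, 6.75% the AP-1 site, 6.02% the E-box, 6.69% the heat shock repeat and 0.113% the ER stress element. Over the 9 listed genes, 3 held the E-box (*Sels*, *Sephs2* and *Secisbp2*), *Selk* alone the AP-1 site and the antioxidant response core, and none the other 2. A match describes the letters only, and the promoter of *Sepw1*, the third gene higher at 4 h, held none of these motifs.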

How the data were processed

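RNA of 4 cultures was hybridized to 4 one-color Mouse GE 4x44K v2 arrays on 1 slide. The authors deposited the intensities of Agilent Feature Extraction 10.7.3.1, background-subtracted and spatially detrended, with flags, and a value table that equals these intensities over an array-wide constant, as found for 100% of the 44397 spots of each array within 1%.

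Here, each probe received the mean log2 value of its unflagged spots, less the 75th percentile of its array. Detection required the flag for well above background on 50% or more of the spots. Where 1 array of a pair failed this, a bound was formed against its own dim signal or the lowest detected one, whichever was higher. The threshold was 2-fold. Members, gene lists and markers were chosen with earlier results of these data known. The text names all member probes, list probes at least 2-fold different at 4 h (at most 6 per list) and the 5 profiles nearest to the member with the largest change at 4 h. The significance analysis named in the methods needs replicates and was not run. Spike-in scaling used 8 probes, and normexp used an offset of 50. In data simulated from the control array alone (39428 probes), 200 of 200 probes changed 4-fold were recovered. Only brighter probes were changed and the added noise was below the spot error, so this checks the computation and not the sensitivity. Python 3.11.15, numpy 2.4.6, pandas 2.3.3, matplotlib 3.10.9, R 4.3.3 and limma 3.58.1 were used. The number of arrays limits the precision.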

Additional observations from a re-analysis of the deposited data

Results flagged for a closer look

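2 member probes lay on opposite sides of the control at different times, and the difference was not tested, since there was 1 array per condition. Probe 2 of *Sepn1* had a log2 ratio of -0.20 ± 0.20 at 4 h, 0.28 ± 0.20 at 20 h and 0.23 ± 0.20 at 32 h, so that the ratio was 0.48 higher at 20 h and 0.43 higher at 32 h than at 4 h. Probe 1 of *Secisbp2* had 0.16 ± 0.20 at 4 h, -0.066 ± 0.20 at 20 h and -0.15 ± 0.20 at 32 h, with differences from 4 h of -0.23 at 20 h and -0.31 at 32 h. The value of *Sepn1* at 4 h and all 3 values of *Secisbp2* were within the spot error. The differences of *Sepn1* were positive under all 5 other scalings, from 0.59 to 1.09 at 20 h and from 0.55 to 0.99 at 32 h. Those of *Secisbp2* changed sign, to between 0.076 and 0.38, when scaled by the median or by the spike-in controls or not scaled.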

How the results depend on the processing

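The number of member probes at least 2-fold higher at 4 h, 1, became 0 with scaling by the median, by the spike-in controls, by the spike-in controls without the 1 probe furthest from the others, or without scaling, 0 at a 3-fold threshold and 3 at 1.5-fold. The median log2 ratio of the member probes at 4 h, 0.15, turned to -0.21 with the median, -0.25 with the spike-in controls, -0.24 with these less 1 probe and -0.13 without scaling, and that at 20 h, 0.20, became 0.53 without scaling. The other 165 of 176 recomputed counts and medians stayed within 1.5 times or within 1 spot error. Of 480 recomputed ratios of single member probes, 55 moved by more than the spot error, and of 135 recomputed list counts, medians and probe ratios 71 moved. Detection rules, flagged spots, normexp, the deposited table and the 4 older-named probes, added after the data were seen, changed none of the member counts. With normexp, however, the log2 ratio of *Sephs2* at 4 h fell by more than its spot error to 1.02, just past 2-fold. The cause of these shifts was not tested. No replicate could be left out. No paired analysis was possible because each condition had 1 array. The dimmest member, probe 1 of *Sepn1*, had the largest spot error.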

Other observations

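All 15 probes of the ER stress targets were lower at 20 h than at 32 h, with log2 ratios from -0.68 to -0.18 and a median of -0.39, and this held for 15 of 15 probes under each of the 5 other scalings. In comparison, 47.5% of all probes measured on both arrays were lower at 20 h, a share that ran from 15.8% to 48.7% over those scalings. *H47* (*Sels*) had -0.36 ± 0.20 in the same comparison, whereas the median of the 10 member probes was -0.0089. The probes share the same 2 arrays, so that their number adds no replication. The differences of *Edem1* (-0.18 ± 0.20), *Dnajc3* (-0.18 ± 0.21) and *Pdia4* (-0.19 ± 0.20) were within the spot error. Without scaling, the smallest difference in the list was -0.021. The list was chosen with earlier results of these data known.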
